A study of Mus musculus with 2 samples.

Results

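The peaks described here are the Isl1 ChIP-Seq peaks of the mouse embryo whose closest transcription start site (TSS) belonged to a noncoding gene other than a microRNA. They were the rows of the embryo Isl1 ChIP-Seq peak list with a noncoding RefSeq identifier (prefix NR) and a symbol other than a microRNA symbol. They numbered 7319 of the 48295 peaks of the list and were assigned to 1461 noncoding genes. The remaining peaks had a protein-coding gene (39259 peaks) or a microRNA gene (1717 peaks) as the closest TSS.

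Isl1 binding was mapped in the dissected cardiogenic mesoderm and heart region of C57BL/6 mouse embryos at E8.25-E9, counted in days of embryonic development. No mutant allele or treatment is given in the labels. Tissue of about 60 to 80 embryos was pooled, chromatin fragments of 200 to 500 bp were precipitated with the anti-Isl1 antibody 39.4D5, and an input library without antibody was the control. A single list of peaks is used here, given with 1 ChIP sample. Whether the list joins replicate libraries could not be settled. The list gives for each peak its position, the signed distance to the closest TSS and the gene, but no height or p-value. Strong and weak peaks could therefore not be separated, and the sequencing depth is unknown. The pooled tissue held several cell types, and the cells in which a site was bound are not known. All intervals below cover counting error within this list only.

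Isl1 is a LIM-homeodomain transcription factor of cardiac progenitors of the second heart field, motor neurons, sensory neurons and endocrine pancreas. Homeodomain proteins bind DNA through short motifs with a TAAT core. Long noncoding RNAs (lncRNAs) are transcribed like messenger RNAs but have no known protein product. Many lie head to head with, or antisense to, a gene for a developmental transcription factor, and in gene-poor regions they are often the only annotated TSS between distant enhancers and the coding gene.

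The sequences under the peaks are shown first because nearly all of them shared a feature that the choice of peaks did not use. Each line gives the 201 bases around the midpoint of a peak on the forward strand of mm9. For 5 antisense, divergent or microRNA-host transcripts, the peak closest to the TSS held an unbroken run of at least 25 purines or at least 25 pyrimidines. Capitals mark the longest run. Uph (now Hand2os1) is divergent to Hand2, and Lhx1os to the homeobox gene Lhx1. Nkx2-2os and Tbx3os2 are antisense to the homeobox gene Nkx2-2 and the T-box gene Tbx3, and Linc-md1 is a muscle lncRNA that hosts microRNAs. The windows lie at chr8:59781686-59781886 (Uph), chr2:147010849-147011049 (Nkx2-2os), chr5:120154213-120154413 (Tbx3os2), chr11:84358815-84359015 (Lhx1os) and chr1:20660309-20660509 (Linc-md1).
Uph: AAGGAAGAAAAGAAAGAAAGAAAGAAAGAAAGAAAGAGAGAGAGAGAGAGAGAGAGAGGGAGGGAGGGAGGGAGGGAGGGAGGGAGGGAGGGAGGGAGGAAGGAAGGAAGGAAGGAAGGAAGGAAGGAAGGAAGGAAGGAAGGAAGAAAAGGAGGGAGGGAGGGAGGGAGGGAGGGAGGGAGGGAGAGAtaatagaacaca
Nkx2-2os: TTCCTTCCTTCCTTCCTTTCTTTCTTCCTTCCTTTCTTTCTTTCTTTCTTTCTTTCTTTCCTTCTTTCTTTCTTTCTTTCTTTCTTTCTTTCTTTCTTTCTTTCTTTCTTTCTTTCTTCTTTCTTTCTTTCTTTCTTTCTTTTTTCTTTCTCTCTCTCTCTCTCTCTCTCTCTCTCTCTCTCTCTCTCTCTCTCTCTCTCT
Tbx3os2: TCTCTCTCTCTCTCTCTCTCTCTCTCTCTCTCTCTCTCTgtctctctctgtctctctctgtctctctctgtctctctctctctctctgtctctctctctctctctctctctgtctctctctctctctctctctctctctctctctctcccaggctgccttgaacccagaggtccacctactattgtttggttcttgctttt
Lhx1os: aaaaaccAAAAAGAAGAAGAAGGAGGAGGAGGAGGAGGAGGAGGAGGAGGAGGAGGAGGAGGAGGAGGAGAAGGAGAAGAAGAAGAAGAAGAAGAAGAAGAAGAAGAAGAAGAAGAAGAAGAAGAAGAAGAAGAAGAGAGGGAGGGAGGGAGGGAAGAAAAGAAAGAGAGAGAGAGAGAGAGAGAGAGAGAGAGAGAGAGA
Linc-md1: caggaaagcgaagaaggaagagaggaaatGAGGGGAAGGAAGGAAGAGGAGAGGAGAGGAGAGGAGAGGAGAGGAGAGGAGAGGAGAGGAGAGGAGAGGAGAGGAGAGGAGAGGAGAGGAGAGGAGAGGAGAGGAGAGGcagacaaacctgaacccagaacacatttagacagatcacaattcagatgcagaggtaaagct
The longest runs measured 189 bases at Uph, 201 at Nkx2-2os, 39 at Tbx3os2, 194 at Lhx1os and 110 at Linc-md1. At Uph, Lhx1os and Linc-md1 they were purine runs on this strand, and at Nkx2-2os and Tbx3os2 pyrimidine runs. At Nkx2-2os the run filled the window.

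A window without such a run is shown for contrast, with nothing in capitals because it held no run of that length. It had no TAAT core on either strand. It is the run-free peak of Fendrr, a mesodermal lncRNA divergent to Foxf1, at chr8:123440139-123440663, with a longest run of 14 bases. The window printed is chr8:123440301-123440501.
Fendrr: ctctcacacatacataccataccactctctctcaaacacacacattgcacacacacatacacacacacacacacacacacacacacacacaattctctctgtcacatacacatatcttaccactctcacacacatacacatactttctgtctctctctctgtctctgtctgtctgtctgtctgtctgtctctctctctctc
The Fendrr window is rich in CA repeats, and its last part is a pyrimidine repeat broken by single G bases. The run of 14 bases reaches the end of the window, beyond which it was not read.

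A run of at least 25 bases was present within 100 bp of the midpoint in 6957 of the 7319 peaks, or 95.1% (95% Wilson interval 94.5 to 95.5%). In windows of the same size 1 kb to either side of the same peaks, 3.89% held a run (569 of 14638, interval 3.59 to 4.21%). The median longest run was 92 bases with quartiles of 63 and 138, and it filled the whole window in 551 peaks (7.53%). Runs were of purines on the forward strand in 3540 peaks and of pyrimidines in 3417, so neither strand prevailed (50.9% purine, interval 49.7 to 52.1%). Peaks nearest to protein-coding genes had a run in 93.9%, and the 95% Newcombe interval of the difference was 0.572 to 1.67 percentage points. Peaks nearest to microRNAs had a run in 95.1%, a difference of 0.00446 points (interval -1.06 to 1.23). The letters TAAT, read on both strands, occurred within the same 201 bases in 36.5% of the noncoding peaks (interval 35.4 to 37.6%), against 35.4% at protein-coding genes, 36.5% at microRNAs and 35.6% of all peaks of the list. The difference from protein-coding genes was 1.15 points (interval -0.0463 to 2.35). These letters were not counted in the windows 1 kb away, so whether their share lies above or below the background was not tested. The input was not analysed here, and whether the sites with a run were bound by Isl1 was not tested.

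Peaks assigned to noncoding genes were far from the TSS. The median distance was 94.1 kb with quartiles of 30.2 and 249 kb, against a median of 53.0 kb for protein-coding genes and 85.3 kb for microRNAs. Within 10 kb of the TSS lay 758 noncoding peaks, or 10.4% (interval 9.68 to 11.1%), and 17.1% of protein-coding ones, a difference of -6.79 points (interval -7.56 to -5.98). Against microRNA peaks, of which 12.2% lay within 10 kb, the difference was -1.82 points (interval -3.58 to -0.186). Within 1 kb lay 106 noncoding peaks (1.45%), and 3532 (48.3%) were over 100 kb away, where 35.1% of the protein-coding peaks were found. Noncoding peaks were upstream of the TSS in 46.8% and protein-coding peaks in 48.0%, a difference whose interval included 0 (-2.42 to 0.0708 points). Peak widths were close, with medians of 464 bp at noncoding genes, 467 bp at protein-coding genes and 460 bp at microRNAs. The cumulative plot of distances shows the noncoding curve below the protein-coding curve through most of this range.

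**Figure D1:**
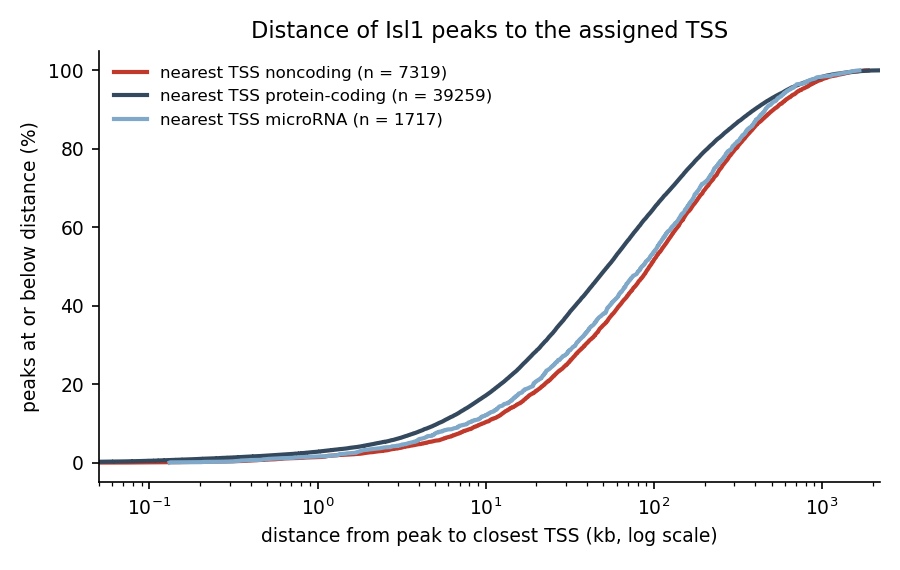
Cumulative share of Isl1 peaks (%) by distance to the assigned TSS (kb, log scale), for peaks nearest to noncoding (n = 7319), protein-coding (n = 39259) and microRNA (n = 1717) TSSs. The curves pass 10.4%, 17.1% and 12.2% at 10 kb and their medians are 94.1, 53.0 and 85.3 kb.

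Most of these peaks lay outside the genes of the annotation used. Of the noncoding peaks, 5820 (79.5%, interval 78.6 to 80.4%) overlapped no gene of GENCODE vM1, the mm9 annotation used here, against 60.5% of the protein-coding peaks. By symbol, 605 of the 1461 noncoding genes were found in this annotation. A peak inside a noncoding gene missing from it thus counted as outside genes, and the part of this in the difference was not tested. The noncoding peaks overlapped an exon in 1.78% and an intron alone in 18.7%. Inside the body of a protein-coding gene were 1117 peaks (15.3%, interval 14.5 to 16.1%), compared with 37.3% of the protein-coding peaks, a difference of -22.1 points (interval -23.0 to -21.1). The median distance to the closest protein-coding TSS was 185 kb, and 1464 peaks (20.0%) had none within 500 kb. Their share of all peaks was 21.6% on chromosome 12 (interval 20.0 to 23.3%) and 7.58% on chromosome X (interval 6.53 to 8.79%), the highest and lowest among chromosomes other than Y, which had 1 such peak of 58.

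Noncoding genes gathered more peaks each than protein-coding genes. The median was 3 peaks per noncoding gene with at least 1 peak, and 2 per protein-coding gene, with means of 5.01 and 3.54. A single peak was found at 429 of the 1461 noncoding genes (29.4%, interval 27.1 to 31.8%), against 41.1% of the 11088 protein-coding genes, a difference of -11.7 points (interval -14.2 to -9.17). At least 10 peaks were assigned to 207 noncoding genes (14.2%) and to 7.38% of the protein-coding genes. These 207 genes held 3472 peaks, 47.4% of all noncoding ones, and the corresponding protein-coding genes held 35.4% of theirs. Among microRNA genes 12.1% had at least 10 peaks, which held 46.0% of the microRNA peaks, and the intervals of the differences from noncoding genes included 0 (-1.73 to 5.46 and -1.20 to 4.04 points). A single peak was found at 40.7% of microRNA genes, a difference of -11.3 points (interval -16.6 to -6.14).

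**Figure D2:**
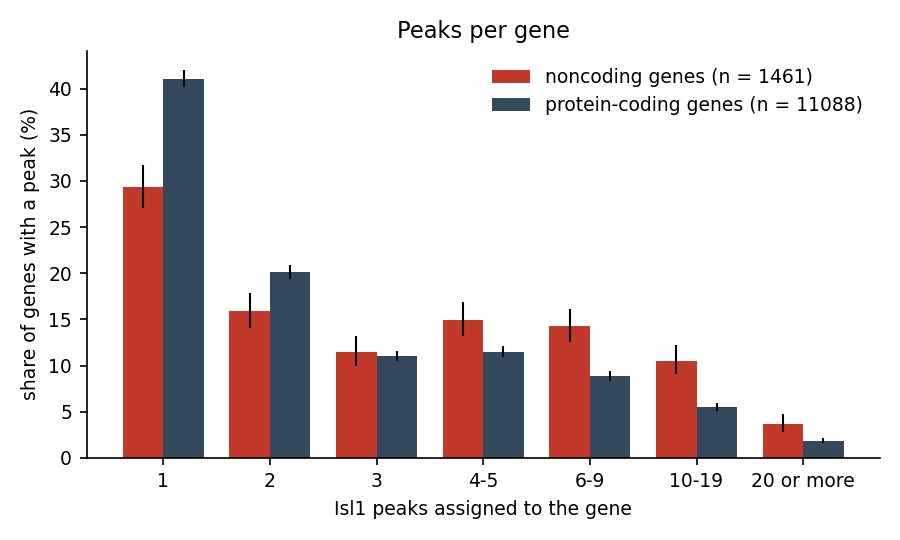
Share of genes (%) by the number of Isl1 peaks assigned to them, for 1461 noncoding and 11088 protein-coding genes with at least 1 peak, with 95% Wilson intervals as error bars. Genes with 1 peak made up 29.4% and 41.1%, and genes with at least 10 peaks 14.2% and 7.38%.

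The number of peaks of a noncoding gene went with its isolation. The TSS could be placed for 1373 of the 1461 genes. Genes that GENCODE calls protein-coding but the list gives as noncoding were left out of the protein-coding TSSs used for this gap. The 282 whose TSS lay within 5 kb of a protein-coding TSS had a median of 2 peaks (quartiles 1 and 4, mean 3.56). The 435 whose TSS was over 100 kb from any protein-coding TSS had a median of 7 (quartiles 3.5 and 11, mean 8.82), and they held 3835 peaks, 54.1% of the peaks of placed genes. Between these, genes at 5 to 20 kb and at 20 to 100 kb had medians of 2. Within 5 kb, 251 of the 282 pairs (89.0%, interval 84.8 to 92.2%) were on opposite strands, whereas at 20 to 100 kb 54.6% were. A peak was assigned to the closest TSS, so an isolated TSS also had a wider stretch of genome from which to draw peaks, and the part of this in the counts was not tested.

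The 10 genes with the most peaks bore names of clones, cDNAs or gene models. For all but 1700030C10Rik (85.1 kb) the closest protein-coding TSS, counted in the same way, was over 100 kb from their own. GENCODE calls 1700030C10Rik itself protein-coding. Gm2516 on chromosome 8 had 49 peaks spread over 2.37 Mb, at 17.4 to 1532 kb from its TSS. Gm20268 on chromosome 1 had 46 peaks over 2.43 Mb, of which 30 were closest to the protein-coding TSS of Cntnap5b, a neuronal adhesion protein gene, and 16 to that of the cadherin gene Cdh20. Gm15679 on chromosome 8 had 44 peaks, all but 1 upstream, 32 of them closest to the cadherin gene Cdh8. 4930556G01Rik on chromosome 4 had 39 peaks between Map3k7, a kinase of TGF-beta signalling, and the ephrin receptor gene Epha7, and 1700030C10Rik on chromosome 12 also had 39. 4930553E22Rik had 34, between Mrpl39 and Ncam2, and 4933402J10Rik had 33, with the protocadherin gene Pcdh7 and G6pd2 beside it. 4930474H20Rik, D030045P18Rik and AU023762 had 32 each, beside Gm10110 and Pcdh9, Hace1, and Pdcd6ip in turn. Together these 10 genes held 380 peaks (5.19%), with 332 (87.4%) over 100 kb from the TSS, 2 inside a protein-coding gene and 14 without a run.

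The 5 most distant peaks came from 4 genes. They belonged to 4930474H20Rik (1773 and 1791 kb), Gm20268 (1777 kb), 2610316D01Rik (1789 kb, beside Pcdh10) and 1700065L07Rik (1868 kb). All 5 were intergenic and held a run of 38 to 201 bases.

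By symbol, 802 of the 1461 genes were RIKEN clones with 4478 peaks, 411 were gene models with 1972, 53 were named for a cDNA or EST with 244 and 35 were pseudogenes or related sequences with 104. Antisense, opposite-strand or overlapping transcripts numbered 73 with 240 peaks, other named genes 64 with 207, and small or structural RNAs 23 with 74. By accession, 1439 genes matched the RefSeq table of GRCm38.p6, which calls 1271 of them lncRNA (6644 peaks), 133 transcribed pseudogene (471 peaks), 15 small nucleolar RNA (24 peaks) and 6 ribosomal RNA (32 peaks). It also calls 3 of them microRNA (3 peaks) and 1 protein-coding (1 peak). GENCODE calls 110 of the 1461 genes protein-coding by symbol. Rprl1 and Rprl2, RNase P RNA-like genes, had 17 and 20 peaks at a median of 624 and 514 kb. The share without a run was between 2.70 and 5.98% in each of the 7 symbol classes, and RIKEN clones (4.69%, interval 4.11 to 5.35%) and gene models (5.98%, interval 5.02 to 7.12%) overlapped in their intervals. The 6 ribosomal RNA genes are gene models and held 30 of the 118 gene-model peaks without a run. Distance differed more between the classes. The antisense class had a median of 57.8 kb, and RIKEN clones a median of 103 kb.

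The antisense, opposite-strand and overlapping transcripts carry the name of a protein-coding partner, so that their peaks can be placed around it. For 68 of the 73 the TSS of both genes could be located, and 67 pairs were on opposite strands. The exception was Sox2ot, which runs in the direction of Sox2. The median gap between the TSSs was 4.31 kb, and 36 pairs were within 5 kb. Of the 240 peaks, 190 (79.2%) were closest to the partner among all protein-coding TSSs, and 114 (47.5%, interval 41.3 to 53.8%) lay inside the partner's gene body. The 73 transcripts had 70 partners, of which 51 also had peaks under their own name, 224 in all, and 19 had none. Leaving out the GENCODE read-through gene Gm20388, 53.3% of the peaks of this class lay inside a protein-coding gene (interval 47.0 to 59.5%). On the same basis the share was 14.7% for all noncoding peaks, 13.4% for RIKEN clones (interval 12.5 to 14.5%) and 11.3% for gene models (interval 9.94 to 12.7%).

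Several transcripts of this class with many peaks lay within or beside long genes. Ptprtos had 18 peaks, all inside Ptprt, a receptor tyrosine phosphatase gene that had 6 peaks of its own. Nrg3os had 15, of which 12 lay inside the neuregulin gene Nrg3, which had 1. Fhitos had 7, all inside Fhit. Has2os, antisense to the hyaluronan synthase gene Has2 of endocardial cushions, had 11 peaks at 64.4 to 387 kb upstream of its own TSS, none inside Has2. Fmr1os had 10 peaks, all closest to the TSS of Fmr1, 142 bp from its own, although Fmr1 was named in no row of the list. The same held for host genes without an antisense name. D17Ertd648e gave 17 peaks inside Park2, and 4930563F08Rik 13 inside the neurodevelopmental gene Auts2, which had 40 of its own.

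Of the antisense and overlapping transcripts, 13 had a listed developmental regulator as the partner named in their symbol, with 42 peaks in all. Uph and 1010001N08Rik, now Hand2os1 and Gata6os, carry older symbols and are not among the 13. Partners outside the lists, such as those of Vax2os and Ptf1aos, were not counted. A run was present in 41 of the 42 peaks, and the exception was the Six3os1 peak closest to the TSS, with a longest run of 7 bases. The TSSs of 10 of the 13 pairs were within 5 kb of each other. Six3os1, antisense to the forebrain homeobox gene Six3, had 8 peaks at 28.9 to 222 kb downstream of its TSS, where Six3 had 3 under its own name. Nkx2-2os had 5 peaks at 1.13 to 13.8 kb, 2 of them inside Nkx2-2, a ventral neural tube and pancreas regulator that was named in no row. Otx2os1, divergent to the head gene Otx2, had 5 peaks at 73.5 to 101 kb from its TSS. The distances of the assigned peaks thus differed between these 3 loci. Assignment to the closest TSS limits each range at the neighbouring TSSs. Tbx3os2 had 4 peaks at 13.1 to 63.2 kb, Evx1os 4 at 12.7 to 79.1 kb, Msx1os, beside the limb and valve homeobox gene Msx1, 4 at 9.51 to 41.8 kb, and Sox2ot 4 at 95.9 to 184 kb upstream. Lhx1os had 3 at 19.8 to 89.3 kb, while Lhx1, a regulator of axial mesoderm and motor neurons, was named in no row. A single peak was assigned to Dlx6os1 (1.82 kb, inside Dlx6), Pax6os1 (2.60 kb, inside the eye gene Pax6), Foxl2os (14.8 kb), Wt1os (22.1 kb) and Emx2os (24.6 kb). In every pair but Sox2ot the transcripts were on opposite strands, with TSS gaps from 19 bp at Wt1os to 10.5 kb at Tbx3os2.

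When every noncoding peak was given to its closest protein-coding gene in GENCODE, 365 of the 7319 fell to a listed developmental regulator. Among 198 developmental genes listed for the heart, nervous system, Hox clusters, endoderm and limb, of which 197 were in the annotation, 57 (28.9%) were the closest protein-coding gene of at least 1 noncoding peak. Of all 22232 protein-coding genes of the annotation, 1657 (7.45%) were. The lists were drawn up with the peak list known, so these shares are a description. The 57 genes received 365 noncoding peaks and had 290 under their own names, and 30 of them had more under noncoding names than under their own. These genes were selected by their noncoding peaks, and over the whole list 150 genes had 859 peaks under their own names. Under their own names, 5 had no peak at all: Smarcd3, Foxf1, Lhx1, Nkx2-2 and Neurog1. Most of the 365 were distant, and closeness does not show which gene a site acts on. For all noncoding peaks the median distance to the closest protein-coding TSS was 185 kb, against 58.6 kb over the whole list. For reference, 80.3% of the peaks that the list assigns to a protein-coding gene had the same gene as the closest protein-coding TSS in GENCODE.

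**Figure D3:**
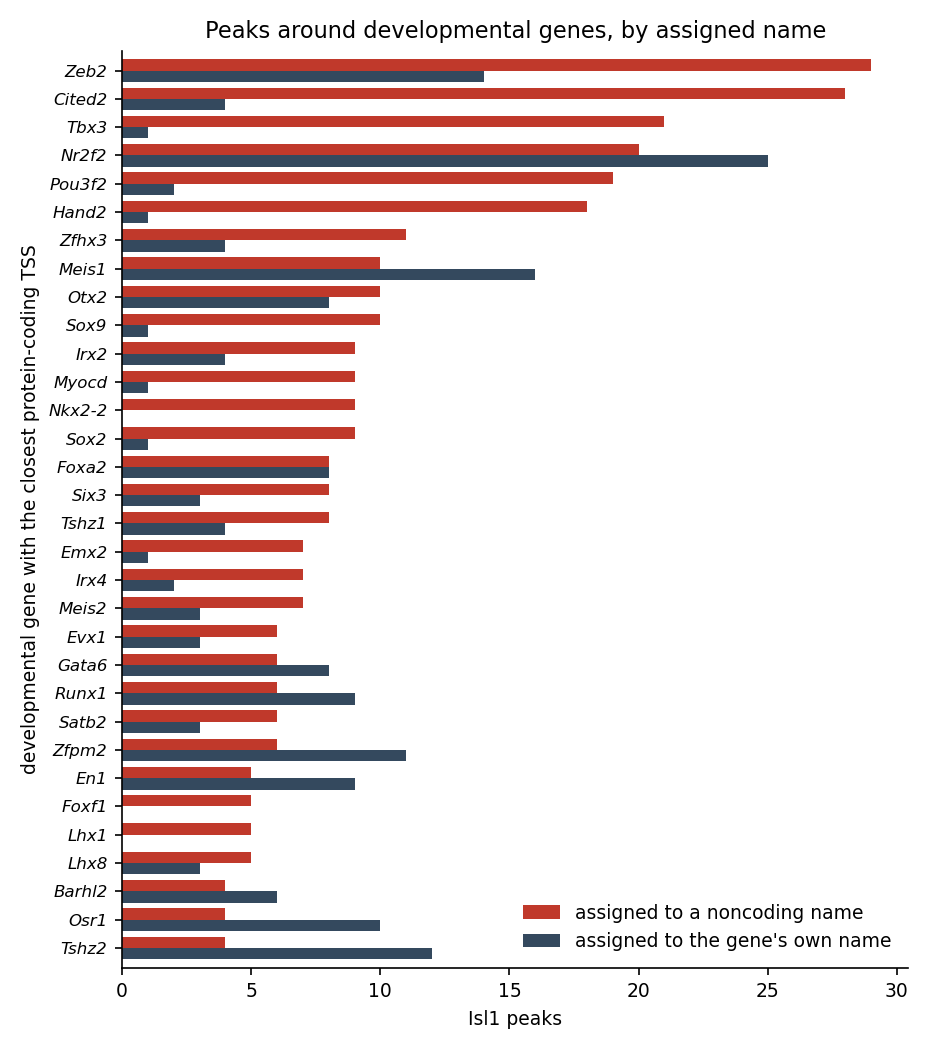
Number of Isl1 peaks around the 32 developmental genes that were closest to at least 4 noncoding peaks, split by the name under which the list gives them. Since the genes were chosen by their noncoding peaks, the bars are a description, and for 22 of the 32 the noncoding bar is the longer, as for Hand2 (18 against 1) and Nkx2-2 (9 against 0).

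In the heart and second heart field list, 20 of 55 genes had noncoding peaks, 136 in all, beside 110 under their own names. Over the whole list, 43 genes had 272 peaks under their own names. Hand2, a basic helix-loop-helix factor needed for the right ventricle, had 18 noncoding peaks and 1 of its own at 0.916 kb. Uph, whose TSS is 124 bp from that of Hand2 on the other strand, had 13 of the 18. They lay at 17.9, 54.0, 77.5, 90.3, 187, 197, 214, 266, 321, 324, 329, 348 and 352 kb from the Uph TSS, on the upstream side of Hand2. All 13 were intergenic, 318 to 645 bp wide and held runs of 52 to 201 bases. The other 5 were assigned to 5033428I22Rik and lay downstream at 10.3, 30.3, 37.0, 54.2 and 55.3 kb. Peaks therefore lay on both flanks of Hand2, under 2 noncoding names.

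Tbx3, a T-box gene of the conduction system and outflow tract, was closest to 21 noncoding peaks and had 1 of its own at 11.3 kb. Upstream were the 8 peaks of Gm7538, the 6 of AW549542, at 106 to 256 kb, the 2 of Gm16063, at 51.8 and 53.0 kb, and 1 of 1700081H04Rik. Downstream lay the 4 peaks of Tbx3os2 at 23.6, 35.5, 59.3 and 73.7 kb. Each of the 21 held a run. Myocd, the serum response factor coactivator of cardiac and smooth muscle, was closest to 9 peaks of Gm12295, at 12.2 to 236 kb upstream, and had 1 of its own at 30.7 kb. One Gm12295 peak, at 173 kb, had no run, its longest measuring 17 bases.

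Smarcd3, which encodes the Baf60c subunit of cardiac SWI/SNF complexes, had no peak under its own name. Both peaks of 1700022A21Rik were closest to it, at 30.5 and 39.7 kb upstream, with runs of 181 and 48 bases. Fendrr had all 5 of its peaks upstream of Foxf1, at 16.4, 30.9, 48.2, 128 and 168 kb. The only protein-coding gene they lay inside was the read-through gene Gm20388, and they overlapped no exon. Only the most distant of the 5 lacked a run. Gata6, a zinc-finger factor of cardiac mesoderm and endoderm, had 8 peaks of its own and 6 under 1010001N08Rik (now Gata6os), whose TSS is 57 bp away on the other strand. Of these 3 genes, Gata6 alone had peaks under its own name as well. Cited2, a coactivator gene of outflow tract and left-right development, was closest to 28 noncoding peaks, 23 of Gm20125 and 5 of C330004P14Rik, at 338 to 1467 kb. Irx4, a ventricular homeobox gene, received 7, Meis2 7, Meis1 10, Zfpm2 6 and Bmp4 3. The 3 Bmp4 peaks were those of Rubie, at 110, 121 and 183 kb.

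**Figure D4:**
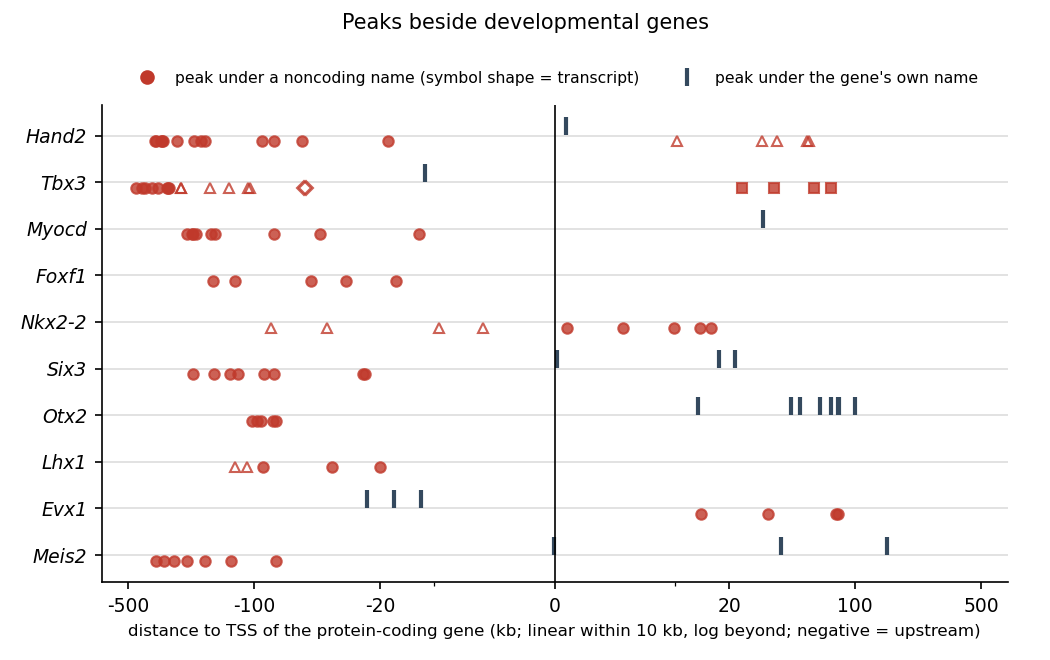
Position of Isl1 peaks relative to the TSS of 10 developmental genes (kb, linear within 10 kb and logarithmic beyond, negative upstream). Red symbols are peaks that the list gives to noncoding transcripts, with filled circles for Uph, Gm7538, Gm12295, Fendrr, Nkx2-2os, Six3os1, Otx2os1, Lhx1os, Evx1os and 2810405F15Rik from top to bottom, triangles for 5033428I22Rik, AW549542, 6430503K07Rik and 1700109G15Rik, squares for Tbx3os2 and diamonds for Gm16063. Blue bars are peaks under the gene's own name, of which Foxf1, Nkx2-2 and Lhx1 have 0 and Hand2 has 1, at 0.916 kb.

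In the neural and sensory list, 21 of the 53 annotated genes had noncoding peaks, 134 in all, beside 76 under their own names. Over the whole list, 47 genes had 232 peaks under their own names. Zeb2, a zinc-finger gene of neural crest, received 29 from 1700019E08Rik, at 294 to 1836 kb, and had 14 of its own. Pou3f2 received 19 from Gm30731, a transcript whose TSS is 2.22 kb from its own, and had 2. Nkx2-2 received 9 and had 0. Besides the 5 of Nkx2-2os these were 4 of 6430503K07Rik at 5.97, 9.63, 39.5 and 80.1 kb upstream, so that peaks again lay on both sides of the coding gene. Sox2, a neural progenitor gene, received 5 from Gm38509, at 118 to 127 kb, and 4 from Sox2ot, and had 1. Lhx1 received 5, the closest at 20.0 kb. Pax6 received 3, 2 from Paupar and 1 from Pax6os1, the closest at 1.07 kb. Neurog1 received 1 from 4930550C17Rik at 8.66 kb.

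Among the Hox genes, Hoxc11 received 1 noncoding peak. Hotair, an lncRNA of the HoxC cluster, had its peak 2.39 kb upstream of the TSS and 4.09 kb from Hoxc11. Among the endoderm, limb and other genes, 14 of 50 received 93 noncoding peaks and had 101 under their own names, while over the whole list 44 genes had 329. Sox9, the chondrocyte and valve regulator, received 10 and had 1, Nr2f2 received 20 and had 25, Foxa2 received 8 and had 8, and Zfhx3 received 11 and had 4.

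Named lncRNAs were then followed by list. Of 15 cardiac and mesodermal lncRNAs, 7 had a peak, 30 in all: Uph 13, Fendrr 5, Dnm3os and Lncenc1 3 each, and Mirt1, Linc-md1 and Tunar 2 each. Linc-md1 had its peaks at 0.446 and 4.13 kb downstream of its TSS, and Dnm3os, host of a microRNA cluster within Dnm3, at 0.488, 42.4 and 50.1 kb upstream. Promoter-near and remote sites thus occurred side by side. Of 31 neural and patterning lncRNAs, 14 had a peak, 54 in all. Celrr had the most with 15, followed by Six3os1 with 8, Nkx2-2os and Otx2os1 with 5, Sox2ot, Tbx3os2 and Rmst with 4 and Lhx1os with 3. The single peaks of the antisense transcripts are given above, and Pantr2 (12.3 kb), Vax2os (8.87 kb) and Gm11201 (1.36 kb) also had 1.

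Of 15 lncRNAs of imprinting and dosage compensation, 5 had a peak. Peg13 had 3 and Snhg14 2, while Ftx, Jpx and Firre on the X chromosome had 1 each, at 11.2, 22.6 and 92.8 kb. Of 16 Hox cluster lncRNAs, 2 had a peak, among them Hotair, given above. Of 26 nuclear and housekeeping RNAs, 5 had a peak: Epb41l4aos 9, Dleu2 6, Rn45s 4, and Tug1 and Lockd 1 each. All but 1 of these 21 peaks, a Dleu2 peak with a longest run of 18 bases, held a run.

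The peaks closest to a TSS differed in sequence from the rest. Among noncoding peaks, 20.8% of those within 1 kb of the TSS had no run (22 of 106, interval 14.1 to 29.4%), against 7.36% at 1 to 10 kb, 4.82% at 10 to 100 kb, 4.05% at 100 to 500 kb and 4.46% beyond. At protein-coding genes 53.0% of the peaks within 1 kb had no run (589 of 1112), a difference of -32.2 points (interval -39.5 to -23.1). Median GC content of the 201 bases within 1 kb was 52.2% at noncoding and 74.9% at protein-coding genes. GC content moved with this result, and its part in it was not tested. In the other distance bins both kinds of peaks differed by 2.08 points at most, and the interval excluded 0 in the bin of 1 to 10 kb (0.206 to 4.41 points). Without the ribosomal RNA genes described next, an alternative chosen after seeing the data, that interval was -0.799 to 3.15 points and the difference within 1 kb was -39.6 points (interval -45.7 to -30.9).

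**Figure D5:**
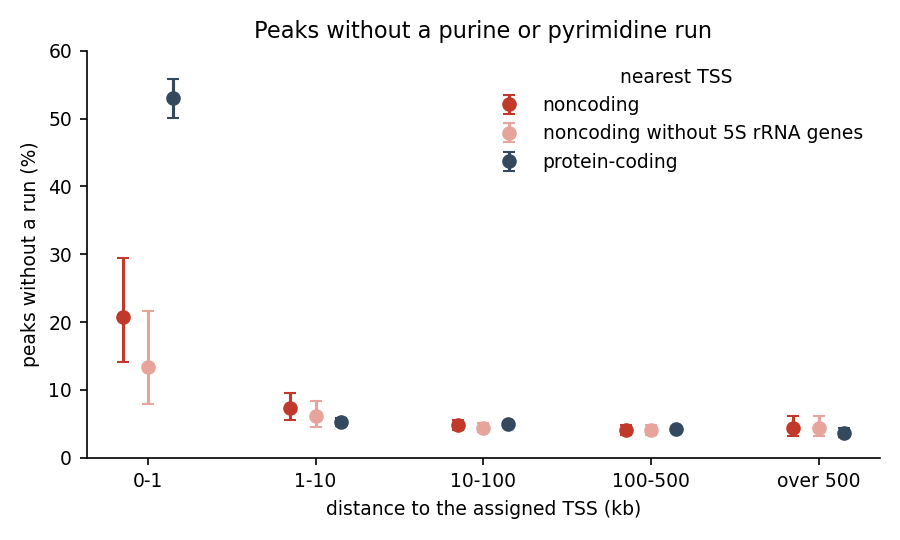
Share of Isl1 peaks that lacked a long purine or pyrimidine run (%) by distance to the assigned TSS (kb), with 95% Wilson intervals, for noncoding genes, noncoding genes without the 5S ribosomal RNA genes, and protein-coding genes. Within 1 kb the shares are 20.8, 13.4 and 53.0%, and beyond 10 kb all lie between 3.70 and 5.00%.

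The 106 promoter peaks fell into 3 kinds. Of the 9 at ribosomal RNA genes, all 9 had no run (median GC content 62.7%). Of the 16 others that were also within 1 kb of a protein-coding TSS, 8 had no run (50.0%, interval 28.0 to 72.0%, median GC content 65.7%). Of the 81 over 1 kb from a protein-coding TSS, 5 had none (6.17%, interval 2.67 to 13.7%, median GC content 51.2%). The interval of this last share included the 4.82% of peaks at 10 to 100 kb. Genes that GENCODE calls protein-coding but the list gives as noncoding were not counted as protein-coding here.

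The 10 peaks closest to a noncoding TSS, all within 115 bp, are part of the promoter peaks just described and are named here. Gm10125 beside Zeb1, Fam120aos beside Fam120a, Gm13375 beside Arhgap21 and the 5S gene Gm22291 had no run, with GC contents of 64.2 to 84.1%. A830011K09Rik beside the LIM-only gene Lmo3, G630071F17Rik, C230091D08Rik, the small Cajal body RNA gene Scarna6 inside Atg16l1, Gm10845 and 9230105E05Rik inside Hmga2 had one, with GC contents of 46.3 to 63.7%. Of these 6 only the A830011K09Rik peak was within 1 kb of a protein-coding TSS, 124 bp upstream of Lmo3.

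A cluster of 5S ribosomal RNA gene copies on chromosome 8 stood apart from all other noncoding peaks. The 6 gene models, of 121 bases each (Gm22109, Gm22291, Gm23284, Gm25018, Gm25212 and Gm26391), held 32 peaks in a stretch of 72.1 kb, of which the peaks covered 61.8%. Their widths ran from 541 to 3426 bp with a median of 1298 bp, against a median of 463 bp for the other noncoding peaks. Of the 63 noncoding peaks wider than 1 kb, 22 were in this cluster. Of the 5 widest noncoding peaks, 4 were there (2214, 2708, 2924 and 3426 bp), and the fifth, of 2644 bp, lay 6.56 kb upstream of 1700048O20Rik with a longest run of 3 bases. In the cluster 30 of 32 peaks had no run (93.8%, interval 79.9 to 98.3%), 8.29% of the 362 noncoding peaks without one. A further 5 peaks within 15 kb beyond it, 802 to 2685 bp wide and all without a run, were assigned to the protein-coding gene Rhou. The copies are near-identical, so reads cannot be placed among them with certainty. The input was not analysed here, and whether any of the copies was bound was not tested.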

How the data were processed

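The samples used here were 1 pooled Isl1 ChIP-Seq sample and its input control, and the input was not analysed. Per the study's methods, the authors mapped reads to mm9 with Bowtie2 at default settings, cleared PCR duplicates by Picard 1.136, ran MACS (no model, shift size of 80 bp) to find peaks, removed blacklisted regions and assigned peaks to the closest TSS. The deposited columns are positions and signed distances in base pairs, with no count, height or score. How reads matching several places were placed, beyond the default settings, is not given in the sources used here. Whether replicate lists had been intersected could not be settled.

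The list repeats its header once, and that row was left out. GENCODE vM1 of NCBIM37, the same build as mm9, gave gene bodies and protein-coding TSSs, with an overlap of at least 1 bp. RefSeq of GRCm38.p6 gave transcript classes by accession and current names, but no coordinates. The strand and TSS of a noncoding gene came from the list's own distances where at least 2 peaks fixed them (1002 genes), otherwise from GENCODE (222) or RefSeq (149) strands, and 88 genes stayed unplaced. Runs and GC content were read from 201 bases around the midpoint. Python 3.11.15, pandas 2.3.3, numpy 2.4.6, scipy 1.17.1, pysam 0.24.0 and matplotlib 3.10.9 were used, and the helper functions were tested on simulated data. Shares have 95% Wilson intervals and differences 95% Newcombe intervals. Peaks of 1 sample are not replicates, so no p-value was computed.

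Peaks, gene lists and comparisons were chosen with earlier results of these data known. Named were the 10 noncoding genes with most peaks, antisense transcripts of listed developmental genes, the listed noncoding genes with a peak (except items not reported here), the 10 peaks closest to a TSS, the 5 widest and the 5 most distant. The other transcripts named beside developmental or host genes, the ribosomal RNA cluster, Rprl1, Rprl2 and the other antisense transcripts were chosen after their values were seen. The alternatives tried were other choices of genes, widths, TSSs, overlaps, run lengths and windows. Some items are not reported here.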

Additional observations from a re-analysis of the deposited data

How the results depend on the processing

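Of 46 alternatives over 9 results, 33 left the value within its 95% interval or, for a count, within 1.5 times. With only peaks wider than the median of the list, 3610 noncoding peaks were left, a loss by construction. Their median width was 571 bp, 39.4% of genes had a single peak, 16.2% of peaks were inside a protein-coding gene and 92.0% had a run. The run share was 92.3% with at least 40 bases and 85.1% within 50 bp of the midpoint. At protein-coding genes these 3 shares were 90.8, 91.0 and 83.6%, so the noncoding share stayed the higher. These alternatives kept the peaks within 1 kb of the TSS, where 20.8% of noncoding and 53.0% of protein-coding peaks had no run. At 1 to 10 kb noncoding peaks lacked a run more often (7.36% against 5.29%), and beyond 10 kb the intervals of the difference included 0. Without the 10 genes with most peaks the median distance was 87.7 kb. With the closest TSS of any GENCODE gene it was 70.6 kb and 13.0% of peaks lay within 10 kb, against 25.8 kb and 28.4% for protein-coding peaks. The 73 antisense transcripts became 26 when distances over 10 kb were left out and 43 when at least 2 peaks were required. The 57 developmental genes became 28 under the same limit of 10 kb. That limit was on the distance to the noncoding TSS, not to the developmental gene. No symbol had both protein-coding and noncoding rows, so leaving such symbols out changed nothing. No paired analysis was possible because a single sample has a peak list. Without peak heights or read depth, weak and strong sites, and absent and undetected ones, cannot be told apart.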
